A study of Saccharomyces cerevisiae with 44 samples.

Results

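The 4 core histone gene pairs of Saccharomyces cerevisiae were followed through BrdU incorporation in hydroxyurea and through Dbf4 binding. The pairs are HTA2-HTB2 and HTB1-HTA1, each coding for histones H2A and H2B, and HHF1-HHT1 and HHT2-HHF2, each coding for histones H4 and H3. A locus was taken as the 50-bp bins that lie in a gene pair or within 5 kb of it, in the coordinates of the deposited files. HTA2-HTB2 spans chr2:230351-241900 (231 bins), HHF1-HHT1 spans chr2:250351-261750 (228 bins), HTB1-HTA1 spans chr4:909301-920950 (233 bins) and HHT2-HHF2 spans chr14:570601-582050 (229 bins). Together they hold 921 of 241434 bins and 8 of 5998 protein-coding genes, and they are 4 of 1037 windows of this size into which the genome was divided.

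BrdU was measured by immunoprecipitation and sequencing (IP) and, beside it, by sequencing the same DNA without immunoprecipitation (Total), in 10 strains with 2 replicates each. The mutants are dbf4∆C, which lacks the C-terminal end of Dbf4 that holds its zinc finger, dbf4-Zn*1 (C661A C664A) and dbf4-Zn*2 (H680C), which carry point mutations in that zinc finger, ctf19∆, fkh1∆, the combination fkh1∆ fkh2-dsm, the triple mutant ctf19∆ fkh1∆ fkh2-dsm, and the double mutants fkh1∆ dbf4-Zn*1 and fkh1∆ dbf4-Zn*2. All are compared with WT. The study describes fkh2-dsm as an allele of FKH2 without its origin function. Cells at 23 °C were released from α-factor into 200 mM hydroxyurea with 400 µg/mL BrdU and, by the labels, harvested after 60 min. For dbf4∆C a figure legend of the study gives a longer time than the labels. A different time in hydroxyurea and the deletion therefore cannot be told apart at any value of this strain. Binding was measured by ChIP-seq with an antibody to FLAG, without hydroxyurea or BrdU, in cells arrested in G1 with α-factor at 23 °C, with 2 libraries of FLAG-dbf4-Zn*1 (spelled FLAG-dbf4-aaHH in the labels) and 2 of FLAG-Dbf4. For ChIP-seq, the labels and the legend of the study pair strain numbers and alleles in opposite ways, and the genotype label was used. Nothing states that replicates came from separate cultures, so the p-values measure only the spread between these samples, which may be technical.

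Each nucleosome is built on an octamer of H2A, H2B, H3 and H4, and yeast codes for each of these proteins in duplicate, in divergent pairs that share a promoter region and are transcribed around the time of DNA synthesis. Replication starts at origins that are licensed in G1 and fired in S phase by the Dbf4-dependent kinase. Hydroxyurea starves forks of nucleotides, so that BrdU collects near origins that fire early, while later origins are held back by the replication checkpoint. Fkh1 and Fkh2 are forkhead transcription factors that advance a group of origins, and the Ctf19 kinetochore complex recruits Dbf4 to centromeres and advances the origins beside them.

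IP libraries held 281531 to 13959837 bin counts and Total libraries 435781 to 33840380, a read being counted in each bin it overlaps. At the histone loci this gave 119 to 201905 counts per IP library and 316 to 62030 per Total library, the lowest IP count being that of fkh1∆ fkh2-dsm replicate 2 at HHT2-HHF2. The deleted genes were checked in every library: CTF19 had no counts in ctf19∆ libraries, and FKH1 was at no more than 14.4% of the library mean in IP and 5.43% in Total where it is deleted, against at least 50.6% and 71.9% in the other strains. In fkh1∆ dbf4-Zn*1 and fkh1∆ dbf4-Zn*2, FKH1 was at 6.39% to 14.4% in IP and 3.53% to 5.43% in Total. Other strains without FKH1 had 0% to 5.51% in IP and 0% to 0.351% in Total. The source of this difference was not tested. Signal is the mean count per bin in a window divided by the mean count per bin of that library. It is relative: a library whose incorporation is spread evenly has lower peaks and a higher floor at an unchanged amount of BrdU. The median window differed from WT by 0.73 in dbf4∆C, 0.52 in ctf19∆, 0.50 in ctf19∆ fkh1∆ fkh2-dsm and 0.41 in fkh1∆ fkh2-dsm on the log2 scale, and by −0.28 to 0.17 in the other strains. Changes at the loci are therefore read beside these medians and beside values scaled with edgeR's TMM. All 9 mutants were compared with the same 2 WT libraries, so that like values in several mutants are not independent. With the Total library in place of the IP library as the scale, 0 of 1037 windows passed the edgeR test in any strain, with 3 to 128 windows at an unadjusted p under 0.05.

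In WT, 3 of the 4 loci were among the most heavily labelled parts of the genome and the fourth was not labelled above the library mean. HHF1-HHT1 had an IP signal of 7.26 and 7.62 in the 2 WT libraries, HTB1-HTA1 had 6.82 and 6.97, and HTA2-HTB2 had 5.97 and 6.29. HHT2-HHF2 had 0.235 and 0.306. Ranked by mean WT signal among the 1037 windows, the loci were 6th, 9th, 23rd and 640th, and the median window had 0.307. Each coding for the same H3 and H4 proteins, the HHF1-HHT1 and HHT2-HHF2 loci were thus at opposite parts of this order, whereas both H2A-H2B loci were near its top. The WT libraries of neighbouring loci in this order did not overlap, but the steps between the first 3 loci are small beside the gap to HHT2-HHF2.

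Set against Total DNA in the same strain, WT IP was higher by 2.81 at HHF1-HHT1, 2.68 at HTB1-HTA1 and 2.50 at HTA2-HTB2 on the log2 scale, and lower by 1.67 at HHT2-HHF2 (a log2 difference of −1.67). All 4 differences passed the edgeR quasi-likelihood test, where 18.9% of all windows were called higher in IP and 78.7% lower. Over the 10 strains, HTB1-HTA1 was ranked between 2 and 15 of 1037 windows, the narrowest range of the 4 loci. HHF1-HHT1 lay between 3 and 277, HTA2-HTB2 between 1 and 291, and HHT2-HHF2 between 54 and 775. HTB1-HTA1 thus stayed among the most labelled windows in each of the 10 strains, and the low ranks of both chromosome 2 loci came from dbf4∆C and, for HTA2-HTB2, ctf19∆.

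**Figure D1:**
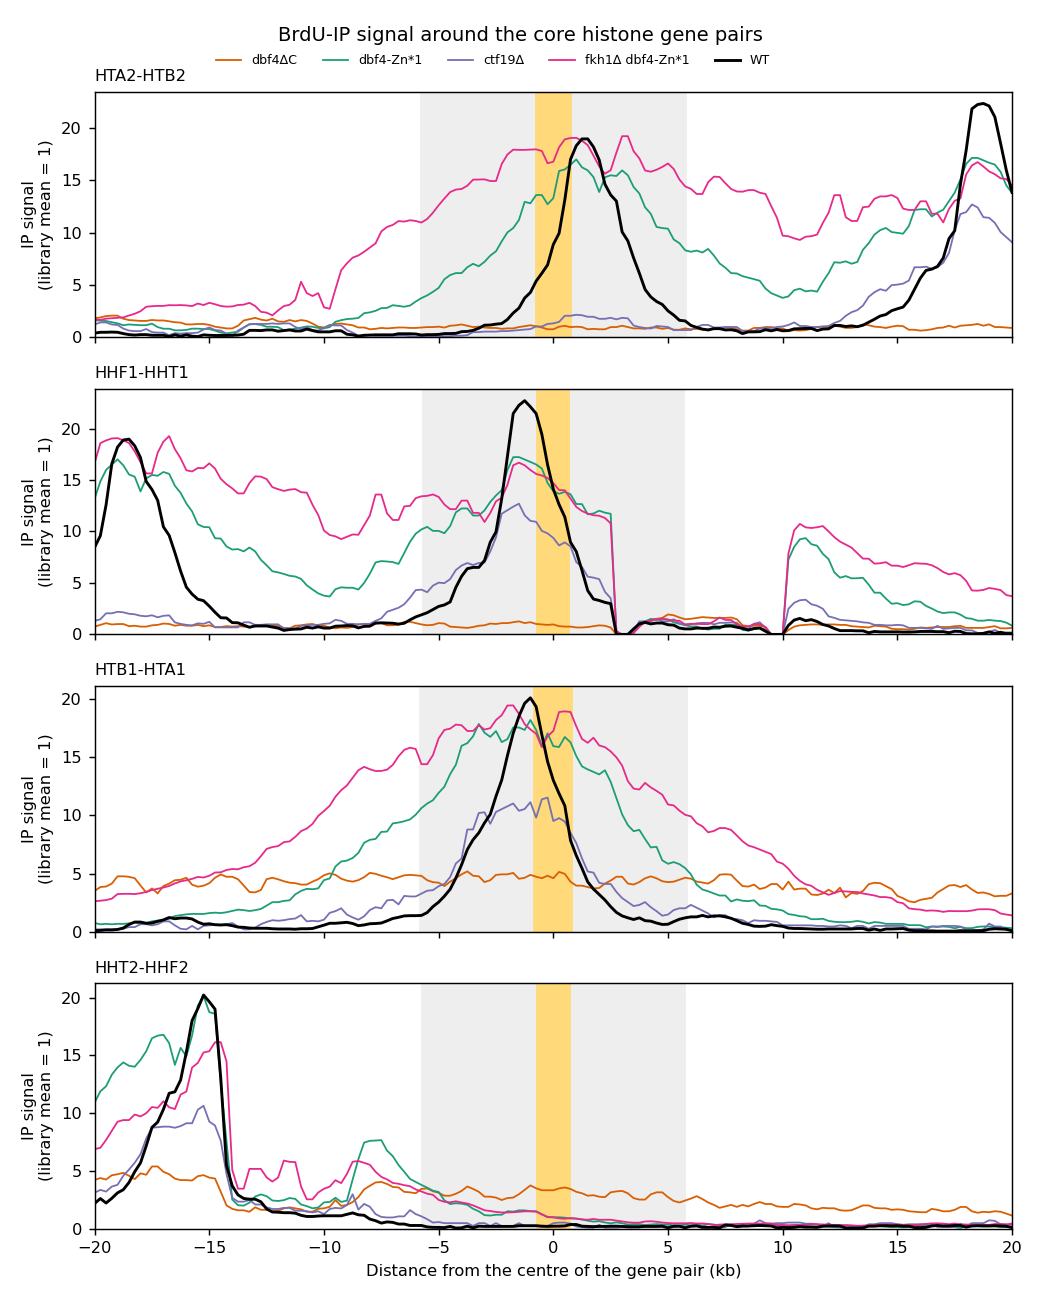
Smoothed IP signal over the library mean (vertical axis) against distance from the middle of each gene pair in kb (horizontal axis), 1 panel per locus, as the mean of 2 libraries for dbf4∆C, dbf4-Zn*1, ctf19∆, fkh1∆ dbf4-Zn*1 and WT. Yellow marks the gene pair and grey its 5-kb flanks: HTA2-HTB2, HHF1-HHT1 and HTB1-HTA1 sit in or beside tall peaks in WT, HHT2-HHF2 does not, and dbf4∆C is flat across both chromosome 2 loci.

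**Figure D2:**
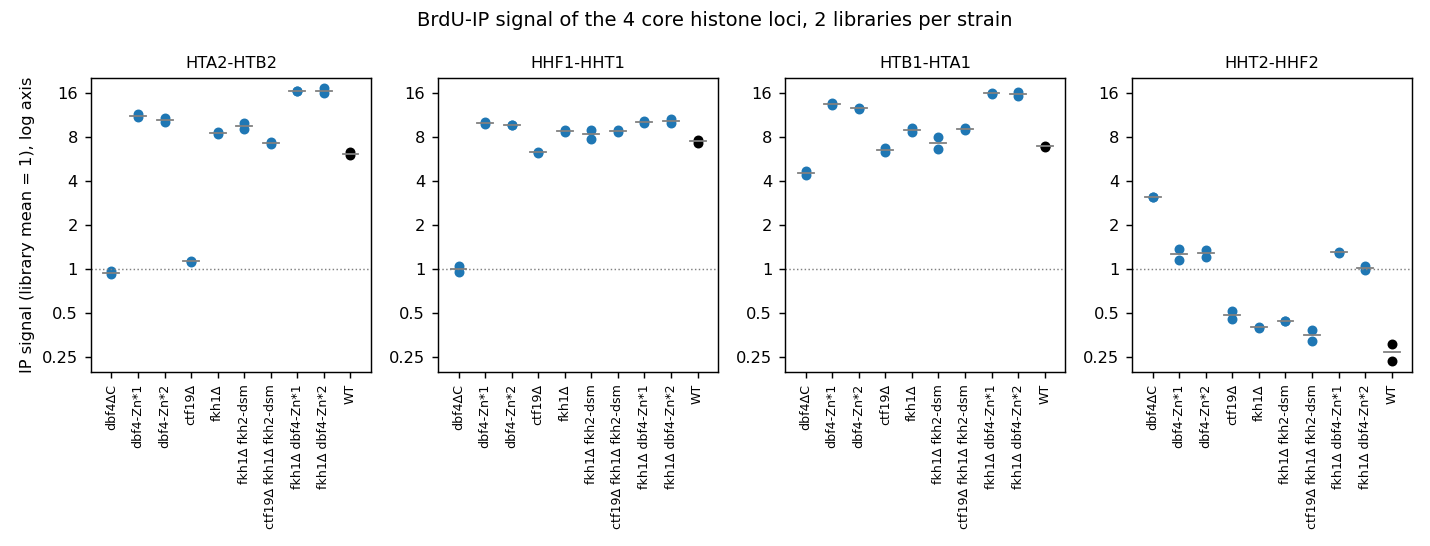
IP signal of the 4 loci over the library mean (log axis), 1 dot per library and a bar at the mean of 2 libraries, mutants at the left and WT at the right of each panel; the dotted line is the library mean. HTB1-HTA1 stays above 4 in every library, HTA2-HTB2 is near 1 in dbf4∆C and ctf19∆, and HHT2-HHF2 is highest in dbf4∆C, at 3.09 and 3.1.

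Peaks of incorporation were sought in the mean of the 20 IP profiles, a peak being a bin with 2 times the mean or more and no higher bin within 5 kb. Of 297 such peaks, 4 lie inside a histone locus, 1 in each. The peak at HTB1-HTA1 (window chr4:914301-914800) lies inside HTB1 itself and reached 18.1 times the mean. The peak at HTA2-HTB2 (chr2:236751-237250) is 0.138 kb from the pair, in a window that touches HTB2 and ECM15 and reached 16.4. The peak at HHF1-HHT1 (chr2:254501-255000) is 0.597 kb from the pair, in a window that overlaps no annotated gene, and reached 18.5. HHT2-HHF2 has its own peak (chr14:576701-577200) inside HHF2, at 2.03 times the mean, and it is not found where peaks must reach 3 times the mean or be the highest within 10 kb. The nearest strong peak to this pair (chr14:561251-561750) is 14.1 kb away, outside the locus, and reached 15.3. A strong peak thus lies in or within 1 kb of 3 of the 4 pairs, and HHT2-HHF2 has only a weak one. Calls at peaks depend on the scale more than those at loci. Over the 9 mutants and the 8 peaks named in the text, 26 of 72 tests were called lower and 10 higher with the sum of bins. With TMM over the peak windows 11 were lower and 36 higher. Among all 297 peaks, 40.1% to 70.0% were called lower and 3.03% to 13.5% higher with the sum of bins. The 8 peaks include those in HHF2 and in GRX7, which were under 2 times the mean in WT. Where peaks must be the highest within 10 kb, which leaves these out, 25 of 54 tests were lower and 2 higher.

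In dbf4∆C both chromosome 2 loci lost their peaks, HTB1-HTA1 kept a part of its labelling, and HHT2-HHF2 gained. HTA2-HTB2 had 0.97 and 0.922 in dbf4∆C, against 5.97 and 6.29 in WT, a log2 difference of −2.69 ± 0.06 (SE; adjusted p = 3.23e-35). HHF1-HHT1 had 1.05 and 0.958 in dbf4∆C, against 7.26 and 7.62 in WT (−2.89 ± 0.07, adjusted p = 2.14e-35). Both loci were near the library mean in dbf4∆C, far below every WT library. HTB1-HTA1 had 4.68 and 4.39 in dbf4∆C, against 6.82 and 6.97 in WT (−0.60 ± 0.06, adjusted p = 5.71e-12), a difference that turned to 0.45, not called, with the Total library as the scale. HHT2-HHF2 had 3.09 and 3.1 in dbf4∆C, against 0.235 and 0.306 in WT (3.57 ± 0.12, adjusted p = 3.33e-30). In this comparison 18.7% of all windows were called lower and 70.1% higher by edgeR with Benjamini-Hochberg adjustment, so a higher call was the usual one and the 3 lower calls were not. With TMM scaling, 48.1% of calls were lower, against 21.1% with the sum of bins, and the 4 loci were at −3.38, −3.57, −1.29 and 2.87 in the order just given. HTB1-HTA1 depended on its flanks: with 10 kb on each side of the pair the difference was 0.15 (adjusted p = 0.00469). The smoothed signal of dbf4∆C was a plateau within 20 kb of the HTB1-HTA1 pair, between 2.52 and 5.18, where WT ran between 0.0406 and 20.1.

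The same held at the peaks. Beside HTB2, peak signal was 1 and 1.06 in dbf4∆C, against 16.8 and 19.9 in WT. Beside HHF1 it was 1.83 and 1.18 in dbf4∆C, against 21.3 and 27.2 in WT. In HTB1 it was 5.44 and 4.55 in dbf4∆C, against 16.8 and 20.2 in WT. No dbf4∆C library overlapped a WT library at these 3 peaks, and the log2 differences were −4.15 ± 0.16, −4.00 ± 0.16 and −1.88 ± 0.14, where 70.0% of the 297 peaks were called lower and 8.08% higher by edgeR. With TMM over the peak windows they were −2.81, −2.67 and −0.55 and were still called. At the weak peak in HHF2, signal was 3.48 and 4.23 in dbf4∆C, against 0.965 and 1.66 in WT, and 0.553 to 1.91 in the libraries of the other strains. Only in dbf4∆C was this window above the 2 times the mean that defined peaks in the mean of all strains, so that its value there is a description and is given no test. At the strong peak 14.1 kb from HHT2-HHF2 it was 4.31 and 4.6 in dbf4∆C, against 18.7 and 22.8 in WT (−2.21 ± 0.16). In dbf4∆C the peak in HHF2 and its strong neighbour thus differed by little, where in WT they were far apart.

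Deletion of CTF19 separated HTA2-HTB2 from the other loci. HTA2-HTB2 had 1.14 and 1.13 in ctf19∆, against 5.97 and 6.29 in WT (−2.44 ± 0.07, adjusted p = 6.6e-33). HHF1-HHT1 had 6.32 and 6.18 in ctf19∆, against 7.26 and 7.62 in WT (−0.25 ± 0.06, adjusted p = 0.000636). HTB1-HTA1 had 6.73 and 6.3 in ctf19∆, against 6.82 and 6.97 in WT, and did not pass the test (−0.08 ± 0.06, adjusted p = 0.243). HHT2-HHF2 had 0.459 and 0.515 in ctf19∆, against 0.235 and 0.306 in WT (0.88 ± 0.12, adjusted p = 2.95e-08). Among all windows, 9.26% were called lower and 67.8% higher by edgeR. With TMM scaling 56.8% of calls were lower, against 12% with the sum of bins, HTB1-HTA1 was called lower at −0.58, and the other 3 loci stood at −2.93, −0.75 and 0.37 in the order HTA2-HTB2, HHF1-HHT1, HHT2-HHF2. The lower call of HHF1-HHT1 was lost with 10-kb flanks (−0.10), and that of HTB1-HTA1 was gained with 2-kb flanks (−0.32).

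The loci differ in their distance from a centromere, whose place was taken as the middle of the gap between its flanking genes. HTA2-HTB2 is 1.32 kb from that of CEN2, which lies within the locus itself, HHF1-HHT1 is 17.2 kb from it, HHT2-HHF2 is 52.1 kb from that of CEN14 and HTB1-HTA1 is 465 kb from that of CEN4. Signal at the peak beside HTB2 was 2.32 and 2.46 in ctf19∆, against 16.8 and 19.9 in WT (−2.95 ± 0.16). Beside HHF1 it was 13.9 and 14.3 in ctf19∆, against 21.3 and 27.2 in WT (−0.78 ± 0.15), and at the peak in HTB1 it was 12.1 and 12.3 in ctf19∆, against 16.8 and 20.2 in WT (−0.60 ± 0.14). All 3 were called lower by edgeR, where 40.1% of peaks were called lower and 3.7% higher, and with TMM over the peak windows they were −2.54, −0.35 and −0.17, the last no longer called. With DESeq2 the peak beside HHF1 was no longer called either (−0.25). Of the 3 histone peaks, the one beside HTB2 thus had the largest log2 difference, and the others were at 12.1 times the library mean or more in ctf19∆; the difference between peaks was not tested.

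Both zinc finger mutants had a higher IP signal, relative to the library mean, at every histone locus than WT. With the Total library as the scale none of these differences was called. HTA2-HTB2 had 10.9 and 11.4 in dbf4-Zn*1 libraries, against 5.97 and 6.29 in WT (0.87 ± 0.06, adjusted p = 1.66e-17). HHF1-HHT1 had 10.1 and 9.74 in dbf4-Zn*1 libraries, against 7.26 and 7.62 in WT (0.42 ± 0.06, adjusted p = 1.13e-07). HTB1-HTA1 had 13.5 and 13.3 in dbf4-Zn*1 libraries, against 6.82 and 6.97 in WT (0.96 ± 0.06, adjusted p = 2.86e-18). These 3 loci rose although the median window fell, at −0.28, and only 15.5% of windows were called higher by edgeR (35.2% lower). HHT2-HHF2 had 1.38 and 1.15 in dbf4-Zn*1 libraries, against 0.235 and 0.306 in WT, the largest log2 difference of the 4 loci in this strain (2.28 ± 0.11, adjusted p = 9.63e-23). Smoothed dbf4-Zn*1 signal around HHT2-HHF2 was 3.18 at 5 kb on the side of its strong neighbour, 1.00 at the middle of the pair and 0.37 at 5 kb on the other side. In dbf4-Zn*2 the 4 loci, in the order HTA2-HTB2, HHF1-HHT1, HTB1-HTA1 and HHT2-HHF2, were higher by 0.76 ± 0.06, 0.37 ± 0.06, 0.86 ± 0.06 and 2.30 ± 0.11, where 16.7% of windows were called higher and 25.7% lower. All 8 directions held with TMM scaling, for which dbf4-Zn*1 gave 1.13, 0.68, 1.22 and 2.53. With 2-kb flanks the HHF1-HHT1 calls of both alleles were lost (0.17 in dbf4-Zn*1 and 0.10 in dbf4-Zn*2).

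At the peaks themselves the zinc finger mutants were less different from WT. At the peak beside HTB2 signal was 16 and 19.1 in dbf4-Zn*1 libraries, against 16.8 and 19.9 in WT, and at the peak in HTB1 it was 18.4 and 18.6 in dbf4-Zn*1 libraries, against 16.8 and 20.2 in WT. The libraries overlapped at both peaks and neither passed the edgeR test (−0.06 ± 0.13 and 0.01 ± 0.14), but with TMM over the peak windows both were called higher (0.52 and 0.60). The peak beside HHF1 had 17.1 and 18 in dbf4-Zn*1 libraries, against 21.3 and 27.2 in WT, which was called lower (−0.46 ± 0.14, adjusted p = 0.00567), as were 49.2% of all peaks. This value also turned with TMM, to 0.13, which was not called.

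The outer 1 kb at both ends of a locus was set against its gene pair as a measure of how far labelling reached. In dbf4-Zn*1 the outer signal was 49.95% of that over the pair at HTA2-HTB2, 40.4% at HHF1-HHT1 and 50.2% at HTB1-HTA1, against 13.3%, 11.51% and 10.8% in WT. In dbf4-Zn*2 it was 50.2%, 45.1% and 46.7% for the same 3 loci, and in the double mutants fkh1∆ dbf4-Zn*1 and fkh1∆ dbf4-Zn*2 it was 79.9% and 74.6% at HTA2-HTB2, 52.3% and 48.9% at HHF1-HHT1, and 71.6% and 62.5% at HTB1-HTA1. In ctf19∆ it was 37.0%, 32.4% and 27.4%, in fkh1∆ 26.0%, 19.6% and 18.4%, and in dbf4∆C 101%, 161% and 89.8%, again in the order HTA2-HTB2, HHF1-HHT1, HTB1-HTA1. Of the strains given here, labelling around the 3 strongly labelled pairs was thus narrowest in WT and widest relative to the pair in dbf4∆C, where no peak stood over both chromosome 2 pairs. The right flank of HHF1-HHT1 holds the Ty genes YBR012W-A and YBR012W-B, with a stretch that has no reads in any strain, so that its outer share is less precise than those of the other loci.

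Neighbouring genes show the same spread. UTP20, a gene of ribosome biogenesis in the HTA2-HTB2 locus, had a mean IP signal of 5.91 in dbf4-Zn*1 and 13.2 in fkh1∆ dbf4-Zn*1 libraries, against 0.877 in WT. HTA2, which codes for H2A, had 11.3 and 11.1 in dbf4-Zn*1 libraries, against 5.24 and 5.77 in WT, while its divergent partner HTB2, coding for H2B and nearer to the peak, had 16.4 and 17 in dbf4-Zn*1 libraries, against 13 and 13.9 in WT. HTA1, the H2A gene farther from the peak in HTB1, had 17 and 16.7 in dbf4-Zn*1 libraries, against 9.22 and 10.2 in WT, while HTB1 had 18.4 and 18.5 in dbf4-Zn*1 libraries, against 16.9 and 20.6 in WT. In both H2A-H2B pairs the gene farther from the peak thus had the larger ratio to WT, a difference that was not tested.

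**Figure D3:**
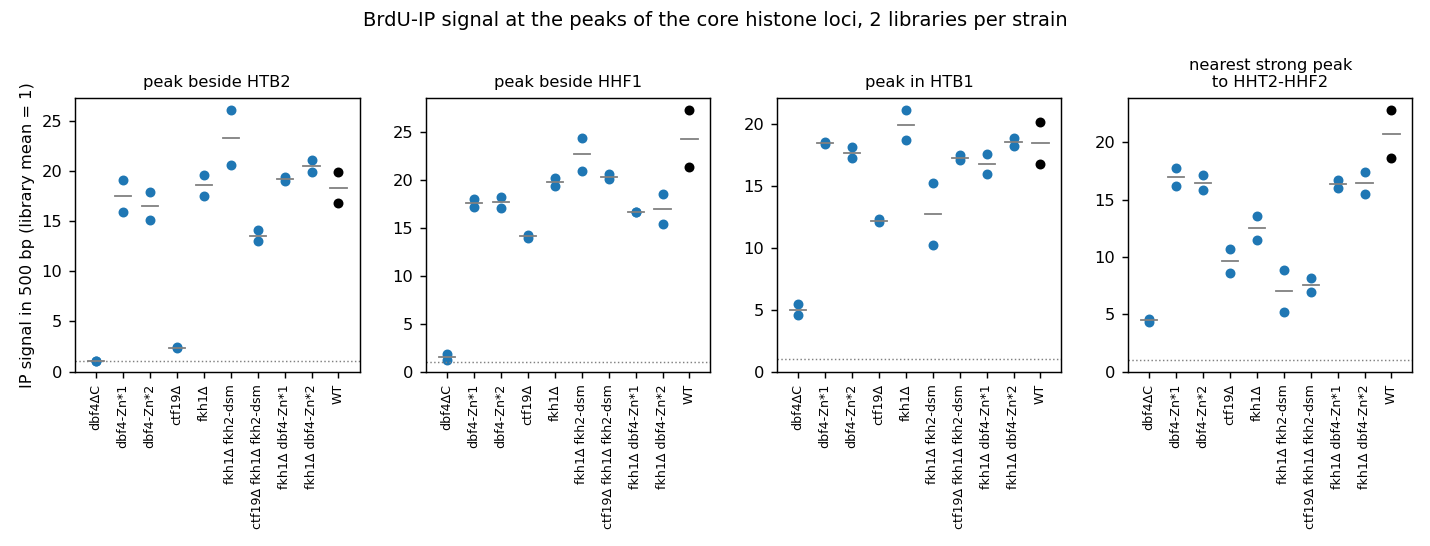
IP signal over the library mean (vertical axis, linear) in 500-bp windows at the peak beside HTB2, the peak beside HHF1, the peak in HTB1 and the strong peak nearest to HHT2-HHF2, with mutants at the left and WT at the right, 1 dot per library and a bar at the mean of 2. The peak beside HTB2 is near 1 in dbf4∆C and at 2.32 and 2.46 in ctf19∆, and at 13 and 14.2 in ctf19∆ fkh1∆ fkh2-dsm.

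Deletion of FKH1 alone was followed by small increases at the 4 loci. HTA2-HTB2 had 8.31 and 8.6 in fkh1∆, against 5.97 and 6.29 in WT (0.47 ± 0.06, adjusted p = 5.45e-09). HTB1-HTA1 had 9.2 and 8.66 in fkh1∆, against 6.82 and 6.97 in WT (0.37 ± 0.06), HHF1-HHT1 had 8.87 and 8.65 in fkh1∆, against 7.26 and 7.62 in WT (0.24 ± 0.06), and HHT2-HHF2 had 0.398 and 0.402 in fkh1∆, against 0.235 and 0.306 in WT (0.61 ± 0.11). The 4 loci were called higher by edgeR, as were 23.8% of windows, with 13.0% lower, but under TMM HHF1-HHT1 (0.12) and HTB1-HTA1 (0.26) did not pass, and with the Total library as the scale HTA2-HTB2, HHF1-HHT1 and HTB1-HTA1 turned to −0.14, −0.34 and −0.19, none called. Without WT replicate 1 the call of HHF1-HHT1 was lost (0.20, adjusted p = 0.0531). In fkh1∆ fkh2-dsm, HTA2-HTB2 had 9.08 and 9.99, against 5.97 and 6.29 in WT (0.64 ± 0.06), and HTB1-HTA1 had 6.64 and 7.92, against 6.82 and 6.97 in WT, so that its libraries overlapped (0.07 ± 0.06, adjusted p = 0.314). HHF1-HHT1 had 7.77 and 8.94 in fkh1∆ fkh2-dsm, against 7.26 and 7.62 in WT (0.16 ± 0.06, adjusted p = 0.0219), a difference that turned to −0.18 under TMM and was lost without WT replicate 1 (0.13) or without replicate 2 of the mutant (0.06). HHT2-HHF2 had 0.445 and 0.446 in fkh1∆ fkh2-dsm, against 0.235 and 0.306 in WT (0.77 ± 0.14). In this strain 49.7% of windows were called higher and 13.9% lower.

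At the strong peak 14.1 kb from HHT2-HHF2, signal was 11.49 and 13.6 in fkh1∆ and 8.84 and 5.23 in fkh1∆ fkh2-dsm, against 18.7 and 22.8 in WT. It was called lower in both strains (−0.73 ± 0.16 and −1.51 ± 0.18), where 40.1% and 46.5% of peaks were, but with TMM the fkh1∆ value was −0.27 and no longer called. The 3 peaks in or beside the histone pairs were not called in fkh1∆, with differences of 0.02 ± 0.13 beside HTB2, −0.29 ± 0.14 beside HHF1 and 0.11 ± 0.14 in HTB1, but with TMM over the peak windows they were 0.48, 0.16 and 0.57, the first and the last called higher. In fkh1∆ fkh2-dsm they were at 0.36 ± 0.14 (adjusted p = 0.0262), −0.10 ± 0.15 (adjusted p = 0.583) and −0.55 ± 0.15 (adjusted p = 0.00211). With TMM the second turned to 0.51, called higher, and the third to 0.05. The peak in HTB1 was the least even between fkh1∆ fkh2-dsm libraries, at 10.3 and 15.3, against 16.8 and 20.2 in WT.

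The low labelling of HTA2-HTB2 in ctf19∆ was not seen once the forkhead factors were also altered. HTA2-HTB2 had 7.11 and 7.32 in ctf19∆ fkh1∆ fkh2-dsm, against 1.14 and 1.13 in ctf19∆ and 5.97 and 6.29 in WT. The difference from ctf19∆ was 2.67 ± 0.07 (adjusted p = 7.87e-34), where 27.0% of windows were called higher and 21.1% lower by edgeR. Signal at the peak beside HTB2 was 13 and 14.2 in ctf19∆ fkh1∆ fkh2-dsm, against 2.32 and 2.46 in ctf19∆ (2.52 ± 0.16). The difference from fkh1∆ fkh2-dsm, which has CTF19, was −0.40 ± 0.06 at HTA2-HTB2 (adjusted p = 5.7e-07), where 7.81% of windows were called lower and 36.2% higher. The effect of ctf19∆ in fkh1∆ fkh2-dsm minus its effect in the strain with both factors was 2.04 ± 0.09 at HTA2-HTB2 (adjusted p = 1.59e-23), where 11.9% of windows were called higher and 24.7% lower. It was 0.32 ± 0.09 at HHF1-HHT1 (adjusted p = 0.00378), 0.40 ± 0.09 at HTB1-HTA1 (adjusted p = 0.000403) and −1.19 ± 0.19 at HHT2-HHF2 (adjusted p = 1.62e-06). Without fkh1∆ fkh2-dsm replicate 1 the value at HHF1-HHT1 was 0.22 and no longer passed (adjusted p = 0.0606).

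Against WT, ctf19∆ fkh1∆ fkh2-dsm was called higher at all 4 loci, by 0.24 ± 0.06 at HTA2-HTB2, 0.24 ± 0.06 at HHF1-HHT1, 0.40 ± 0.06 at HTB1-HTA1 and 0.46 ± 0.12 at HHT2-HHF2. These values are no larger than the shift of the median window, 0.50, and 62.5% of windows were called higher (13.9% lower). Under TMM all 4 turned negative, at −0.27, −0.26, −0.10 and −0.07, and none passed, so that no direction against WT can be given for this strain.

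The double mutants with the zinc finger alleles had the highest values of the series at the H2A-H2B loci. HTA2-HTB2 had 16.3 and 16.3 in fkh1∆ dbf4-Zn*1 and 17.1 and 15.9 in fkh1∆ dbf4-Zn*2 libraries, against 5.97 and 6.29 in WT, and ranked 1 of 1037 windows in both. HTB1-HTA1 had 15.6 and 16 in fkh1∆ dbf4-Zn*1 and 16.1 and 15.1 in fkh1∆ dbf4-Zn*2 libraries, against 6.82 and 6.97 in WT, and ranked 2. HHF1-HHT1 had 9.92 and 10.2 in fkh1∆ dbf4-Zn*1 and 10.6 and 9.96 in fkh1∆ dbf4-Zn*2 libraries, against 7.26 and 7.62 in WT. The log2 differences from WT were 1.41 ± 0.06, 1.20 ± 0.06 and 0.44 ± 0.06 in fkh1∆ dbf4-Zn*1, where 20.0% of windows were called higher and 23.5% lower, and 1.43 ± 0.06, 1.18 ± 0.06 and 0.47 ± 0.06 in fkh1∆ dbf4-Zn*2, with 21.9% higher and 20.3% lower. HHT2-HHF2 had 1.31 and 1.29 in fkh1∆ dbf4-Zn*1 and 1.05 and 0.993 in fkh1∆ dbf4-Zn*2 libraries, against 0.235 and 0.306 in WT (2.32 ± 0.11 and 1.97 ± 0.11).

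Over the single zinc finger mutant, loss of Fkh1 added signal at HTA2-HTB2 (0.55 ± 0.06 with dbf4-Zn*1 and 0.67 ± 0.06 with dbf4-Zn*2) and at HTB1-HTA1 (0.24 ± 0.06 and 0.32 ± 0.06), but the HTB1-HTA1 value with dbf4-Zn*1 was 0.02 under TMM and did not pass. HHF1-HHT1 did not pass in either (0.02 ± 0.06 and 0.09 ± 0.06). Of all windows, 35.8% and 31.5% were called higher in these comparisons and 14.9% and 15.6% lower, and the median window was at 0.27 and 0.24. HHT2-HHF2 was lower in fkh1∆ dbf4-Zn*2 than in dbf4-Zn*2 (−0.33 ± 0.10, adjusted p = 0.00549), a call lost without dbf4-Zn*2 replicate 1 (−0.24) or fkh1∆ dbf4-Zn*2 replicate 2 (−0.29), and had 0.04 ± 0.10 with dbf4-Zn*1. The effect of fkh1∆ in a zinc finger mutant minus its effect in WT passed the edgeR test at HHT2-HHF2 alone among the 4 loci, at −0.58 ± 0.15 with dbf4-Zn*1 (adjusted p = 0.0021) and −0.94 ± 0.15 with dbf4-Zn*2 (adjusted p = 1.26e-06), where 14.0% and 14.9% of windows were called lower and 14.9% and 13.2% higher. Without WT replicate 1 the value with dbf4-Zn*1 was −0.35 and no longer passed, nor with 2-kb flanks (−0.26). With a replicate block HTA2-HTB2 also passed with dbf4-Zn*2 (0.21, adjusted p = 0.045), and with 10-kb flanks it passed with dbf4-Zn*1 (0.24) and dbf4-Zn*2 (0.35).

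Over the gene pairs alone, without flanks, HHF1-HHT1 was not called higher than WT in any strain. In dbf4-Zn*1 it was at −0.06 and did not pass the test, while HTA2-HTB2 (0.62), HTB1-HTA1 (0.32) and HHT2-HHF2 (1.08) were called higher, as were 13.6% of the 8009 windows of this size (12.4% lower). In dbf4-Zn*2 the same 3 pairs were called higher, at 0.54, 0.29 and 1.32, and HHF1-HHT1 was at −0.11 (13.9% of windows higher, 10.5% lower). The double mutants fkh1∆ dbf4-Zn*1 and fkh1∆ dbf4-Zn*2 also had these 3 calls, at 0.95 and 1.03 for HTA2-HTB2, 0.38 and 0.46 for HTB1-HTA1 and 0.97 and 0.69 for HHT2-HHF2, with HHF1-HHT1 at −0.03 and 0.01 (17.2% and 18.0% of windows higher, 11.55% and 10.7% lower). The gain of HHF1-HHT1 over the locus in these 4 strains thus lay in its flanks. In dbf4∆C, HTA2-HTB2, HHF1-HHT1 and HTB1-HTA1 were lower by log2 differences of −3.30, −3.97 and −1.50 and HHT2-HHF2 was higher by 2.65 (11.3% of windows lower, 56.5% higher). In ctf19∆ they were at −2.56, −0.56 and −0.36, all called lower, and HHT2-HHF2 at 0.38 was not called (5.27% lower, 29.8% higher). Only HTA2-HTB2 was called in fkh1∆ (0.43, with 12.2% of windows higher and 5.54% lower) and in fkh1∆ fkh2-dsm (0.59, with 25.3% higher and 7.99% lower), and no pair was called in ctf19∆ fkh1∆ fkh2-dsm (33.7% higher, 8.6% lower). With TMM, 11 of these 36 tests were called lower and 9 higher, against 6 and 15 with the sum of bins.

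**Figure D4:**
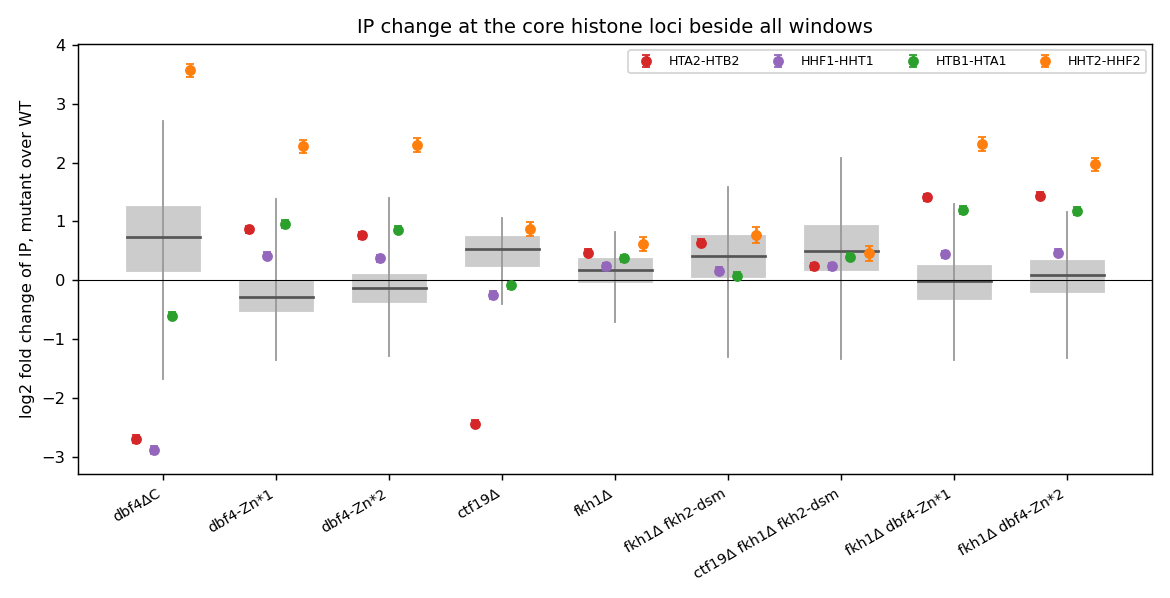
Log2 difference in IP signal from WT (vertical axis) for the 9 mutants (horizontal axis), with a point and SE for each of the 4 loci over the spread of all 1037 windows (box, middle 50%; line, 5% to 95%; bar, median). In ctf19∆ HTA2-HTB2 is at −2.44 while the median window is at 0.52, and in dbf4∆C HHT2-HHF2 is at 3.57.

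The Total libraries were read for DNA copies, of which a replicated locus holds more than an unreplicated one. Like IP signal, Total signal is relative to the library mean. In WT, Total signal was 1.07 and 1.1 at HTA2-HTB2, 1.05 and 1.07 at HHF1-HHT1, 1.11 and 1.04 at HTB1-HTA1, and 0.836 and 0.801 at HHT2-HHF2. The first 3 were above the library mean in both WT libraries and HHT2-HHF2 was below it in both. The order of IP and that of Total thus put the same locus last. WT Total ranks were 36, 52, 38 and 907 of 1037 in that order of loci.

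Total signal rose most in the double mutants. Their median window was at 0.85 in each, against 0.876 in WT, and whether the values below reflect DNA copies alone was not tested. HTA2-HTB2 had 2.02 and 2.01 in fkh1∆ dbf4-Zn*1 and 2.05 and 2.02 in fkh1∆ dbf4-Zn*2 libraries, against 1.07 and 1.1 in WT (0.90 ± 0.06, adjusted p = 1.56e-14, and 0.91 ± 0.06, adjusted p = 9.26e-15). HTB1-HTA1 had 1.99 and 1.94 in fkh1∆ dbf4-Zn*1 and 1.99 and 1.99 in fkh1∆ dbf4-Zn*2 libraries, against 1.11 and 1.04 in WT (0.87 ± 0.05 and 0.88 ± 0.05). HHF1-HHT1 had 1.48 and 1.48 in fkh1∆ dbf4-Zn*1 and 1.51 and 1.55 in fkh1∆ dbf4-Zn*2 libraries, against 1.05 and 1.07 in WT (0.48 ± 0.04 and 0.53 ± 0.04). Of all windows, 7.81% and 7.71% were called higher in the 2 comparisons and 5.69% and 4.53% lower, so these calls were uncommon, and every double-mutant library lay above both WT libraries at the 3 loci. HHT2-HHF2 had 0.847 and 0.848 in fkh1∆ dbf4-Zn*1 and 0.85 and 0.842 in fkh1∆ dbf4-Zn*2 libraries, against 0.836 and 0.801 in WT, and did not pass (0.05 ± 0.04 in each).

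The single zinc finger mutants were higher in Total at the same 3 loci, by 0.30 ± 0.06, 0.25 ± 0.05 and 0.38 ± 0.06 in dbf4-Zn*1 and by 0.24 ± 0.06, 0.20 ± 0.04 and 0.29 ± 0.05 in dbf4-Zn*2, for HTA2-HTB2, HHF1-HHT1 and HTB1-HTA1. Of all windows, 4.63% and 3.66% were called higher and 0.868% and 1.45% lower by edgeR. Without dbf4-Zn*2 replicate 2 the 3 calls of that allele were lost (0.14, 0.15 and 0.24), and without WT replicate 1 those of HTA2-HTB2 (0.22) and HHF1-HHT1 (0.18) were. In dbf4∆C, HTA2-HTB2 had 0.907 and 0.902, against 1.07 and 1.1 in WT (−0.26 ± 0.06, adjusted p = 0.00101), and HHF1-HHT1 had 0.849 and 0.864, against 1.05 and 1.07 in WT (−0.30 ± 0.05, adjusted p = 5.51e-06). HHT2-HHF2 had 1.02 and 1.1 in dbf4∆C, against 0.836 and 0.801 in WT (0.38 ± 0.04, adjusted p = 1.9e-08), and HTB1-HTA1 had 1.28 and 1.23, against 1.11 and 1.04 in WT (0.22 ± 0.06, adjusted p = 0.00406), a call lost without WT replicate 2 (0.17) or dbf4∆C replicate 1 (0.19). Of all windows, 6.65% were called lower and 19.4% higher in dbf4∆C. Thus Total signal at HTB1-HTA1 was above WT in dbf4∆C although its IP signal was below WT.

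In ctf19∆, HTA2-HTB2 had 0.854 and 0.948 in Total, against 1.07 and 1.1 in WT (−0.27 ± 0.06, adjusted p = 0.00696), the only locus called in this strain, where 1.35% of windows were called lower and 5.88% higher. The call was lost without WT replicate 2 (−0.24) or ctf19∆ replicate 1 (−0.19). No locus was called in fkh1∆, fkh1∆ fkh2-dsm or ctf19∆ fkh1∆ fkh2-dsm, with edgeR differences between −0.06 and 0.16, where 0.579%, 3.18% and 2.51% of windows were called lower and 0.579%, 1.35% and 5.5% higher in that order of strains.

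**Figure D5:**
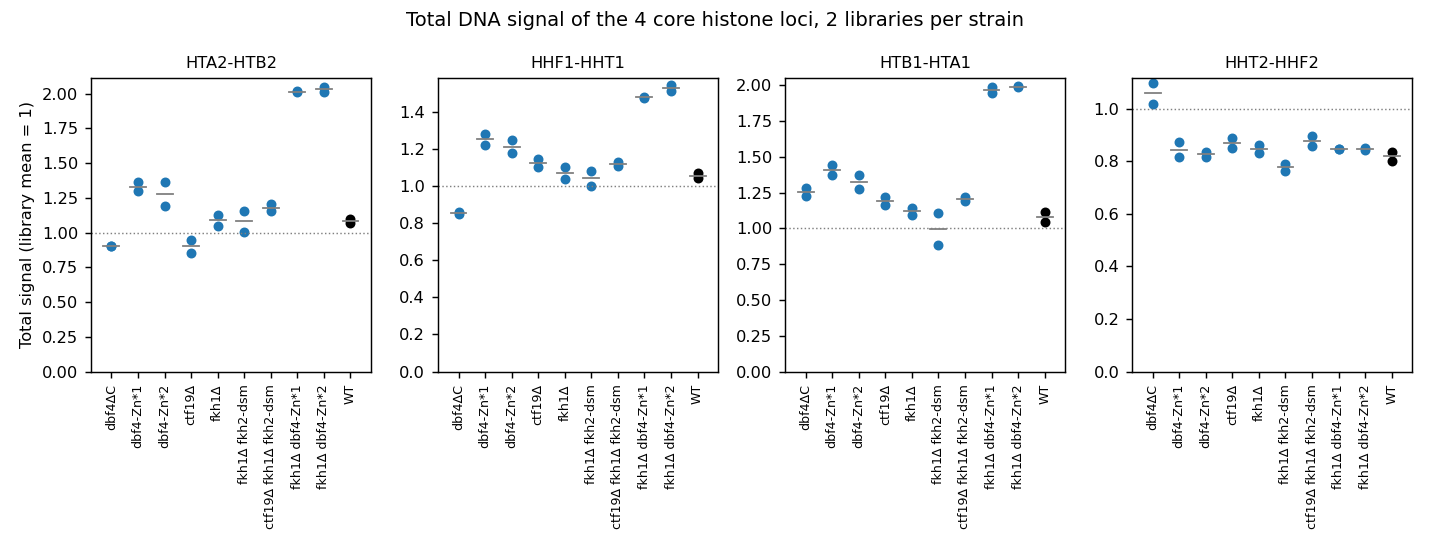
Total signal of the 4 loci over the library mean (linear axis), 1 dot per library and a bar at the mean of 2 libraries, mutants at the left and WT at the right of each panel. HTA2-HTB2 and HTB1-HTA1 are near 2 in fkh1∆ dbf4-Zn*1 and fkh1∆ dbf4-Zn*2, and HHT2-HHF2 is near 1 in dbf4∆C.

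IP was also set against Total within each strain, so that only libraries of 1 strain enter a value. At HTA2-HTB2 the log2 difference was 0.07 in dbf4∆C, which did not pass, and 0.33 in ctf19∆, against 2.50 in WT. At HTB1-HTA1 it was 1.85 in dbf4∆C and 2.46 in ctf19∆, against 2.68 in WT, and at HHF1-HHT1 it was 0.23 in dbf4∆C and 2.47 in ctf19∆, against 2.81 in WT. HHT2-HHF2 was above its Total in 5 strains, at 1.54 in dbf4∆C, 0.59 in dbf4-Zn*1, 0.64 in dbf4-Zn*2, 0.62 in fkh1∆ dbf4-Zn*1 and 0.27 in fkh1∆ dbf4-Zn*2, and below it in the 5 strains with the DBF4 allele of WT, between −1.67 in WT and −0.81 in fkh1∆ fkh2-dsm. Over the 10 strains 17.8% to 25.0% of windows were called higher in IP by edgeR and 64.9% to 79.2% lower. With the lower 90% of bins as the library size, 3 of those 5 lower values no longer passed (−0.19 in ctf19∆, −0.08 in fkh1∆ and −0.21 in fkh1∆ fkh2-dsm).

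The 8 genes were measured over their own bins. In WT, HHF1 (H4) had 18 and 21.9, HTB1 (H2B) 16.9 and 20.6, HTB2 (H2B) 13 and 13.9, HHT1 (H3) 10.5 and 10.7, HTA1 (H2A) 9.22 and 10.2, and HTA2 (H2A) 5.24 and 5.77. These 6 genes ranked 4, 6, 34, 72, 95 and 224 of 5998, and the median gene had 0.282. HHF2 (H4) had 1.3 and 2.2 in WT, ranking 538, and HHT2 (H3) had 0.225 and 0.386, ranking 2672. HHF1 and HTB1 overlapped in their WT libraries and the other neighbours in this order did not. In each of the 3 strongly labelled pairs the gene nearer to the peak had the higher signal. This is no separate result, because peaks were defined as the highest bins of these same IP profiles.

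HTB1 and HTA1 were the genes that kept labelling in dbf4∆C, with 5.43 and 4.59 for HTB1, against 16.9 and 20.6 in WT, and 3.84 and 4.9 for HTA1, against 9.22 and 10.2 in WT. Among dbf4∆C genes they ranked 12 and 59 of 5998. HTA2, HTB2, HHF1 and HHT1 were between 0.667 and 1.53 in dbf4∆C libraries and ranked from 1186 to 2371. HHT2 had 3.35 and 3.25 in dbf4∆C, against 0.225 and 0.386 in WT, and ranked 258. In ctf19∆ both HTA2 and HTB2 were low, at 0.949 and 1.15 for HTA2 and 2.71 and 1.91 for HTB2, against 5.24 and 5.77 and 13 and 13.9 in WT, while HTB1 ranked 2 and HHF1 ranked 8 of all genes. In the double mutants HTA1 and HTB2 held ranks 1 and 2, HTA1 first in fkh1∆ dbf4-Zn*1 (19.7 and 19.7) and HTB2 first in fkh1∆ dbf4-Zn*2 (21.1 and 20.2).

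The coding sequences of the H3 genes, of the H4 genes and of the H2A genes are close copies of each other, so that reads could have been placed on the wrong copy. How repeated matches were handled in the IP files is not given in the sources used here. In the ChIP-seq files, where each read has a mapping quality, 53.5% to 61.3% of reads on HHF1, HHF2, HHT1, HHT2, HTA1 and HTA2 had a quality of at least 30, against 81.8% to 83.2% in the libraries outside the rDNA, while HTB1 and HTB2 had 84.6% and 82.2%. The level of HHF2 above HHT2 in WT and the weak peak in HHF2 are therefore uncertain, and whether they came from reads of HHF1 was not tested. With the coding bins of the 8 genes left out of the windows, no locus in IP lost its call.

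The peaks across the 20 IP libraries that most resembled those at the histone loci were found by Pearson's r of log2 signal. The peak beside HTB2 was most like chr12:231201-231700 (r = 0.91), chr6:166851-167350 in MIC19 (r = 0.90) and chr5:146051-146550 in VAB2 (r = 0.88). The peaks beside HHF1 and in HTB1 had the same 3 nearest peaks as each other, those on chromosomes 6 and 12 already named and chr3:74001-74500, with r between 0.93 and 0.94. The libraries share strains, replicates and depth, so that r is a description over 20 libraries. The weak peak in HHF2 was most like a different set, chr13:299951-300450 in BUD22 (r = 0.80), chr7:869901-870400 in TFG1 and HGH1 (r = 0.76) and chr5:122801-123300 in PMP2 (r = 0.76).

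Of the peaks outside the loci that lie nearest to a pair, the peak in GRX7 (chr2:266501-267000), 10.0 kb from HHF1-HHT1, was low in WT and higher in most mutants. Its signal was 10 and 9.04 in dbf4-Zn*1 libraries and 8.41 and 9.76 in dbf4-Zn*2 libraries, against 1.94 and 0.993 in WT. It was 11.02 and 10.98 in fkh1∆ dbf4-Zn*1 and 10.79 and 11.3 in fkh1∆ dbf4-Zn*2, the highest of all strains, and 4.58 and 4.07 in fkh1∆, 4.18 and 3.54 in ctf19∆ and 4.49 and 5.65 in ctf19∆ fkh1∆ fkh2-dsm. These values are given as a description, without a test. In fkh1∆ fkh2-dsm the libraries were far apart (4.42 and 0.515), and in dbf4∆C they were at 0.892 and 0.985. The WT libraries were themselves below the 2 times the mean that defined peaks, so that this peak was found through the strains with higher values. That such strains exceed WT here follows from the choice of the window, and no conclusion is drawn. It was not found as a peak of its own where peaks must be the highest within 10 kb. On the far side of HTA2-HTB2, the peak at ALK2 and YBL008W-A (chr2:209151-209650), 26.0 kb away, was lower than in WT by a log2 difference of −0.89 ± 0.22 in fkh1∆ and −2.16 ± 0.31 in fkh1∆ fkh2-dsm, and higher by 0.81 ± 0.22 in ctf19∆. The fkh1∆ value was −0.44 and not called with TMM. The nearest peak beyond HTB1-HTA1 is at SUP2 (chr4:945901-946400), 30.3 kb away, and was not called in any strain against WT by edgeR with library totals as the scale. With TMM over the peak windows the SUP2 peak was called higher in dbf4∆C (1.84), dbf4-Zn*1 (0.81), dbf4-Zn*2 (0.84), fkh1∆ dbf4-Zn*1 (1.66) and fkh1∆ dbf4-Zn*2 (1.26), and DESeq2 called it in the same 5 strains.

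No difference between the alleles was detected in ChIP-seq at the histone loci. ChIP-seq signal is given over the mean per bin outside the rDNA, whereas the fits took all fragments as library size. HTA2-HTB2 had a signal of 0.969 and 0.979 in FLAG-dbf4-Zn*1, against 1.18 and 0.995 in FLAG-Dbf4 (−0.16 ± 0.40). HHF1-HHT1 had 0.790 and 0.782 in FLAG-dbf4-Zn*1, against 0.848 and 0.644 in FLAG-Dbf4 (0.06 ± 0.48). HTB1-HTA1 had 1.02 and 1.06 in FLAG-dbf4-Zn*1, against 1.10 and 1.06 in FLAG-Dbf4 (−0.05 ± 0.39), and HHT2-HHF2 had 0.816 and 0.827 in FLAG-dbf4-Zn*1, against 0.810 and 0.772 in FLAG-Dbf4 (0.07 ± 0.48). The adjusted p was 1 at each locus, and edgeR called 0 of 1037 windows, with 0 at an unadjusted p under 0.05. Over the gene pairs alone, 0 of 7994 windows were called, with 6 at an unadjusted p under 0.05. The SEs were 0.39 to 0.48 on the log2 scale, so that changes of that size were not detectable in these fits. Their library size includes the rDNA, whose share differed between libraries. The rDNA took 50.6% to 66.9% of fragments in these libraries, and no histone locus was called with TMM, without the rDNA in the library size, with reads of mapping quality of at least 30, or with 1 fragment per position.

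The 4 loci lay between 0.644 and 1.18 times the mean outside the rDNA in every ChIP-seq library, and CEN2 lay above that mean. The window at CEN2, inside the HTA2-HTB2 locus, had 1.85 and 1.89 in FLAG-dbf4-Zn*1, against 2.61 and 2.01 in FLAG-Dbf4. Across the 15 centromere windows measured the median was 1.24 and 1.21 in FLAG-dbf4-Zn*1, against 2.00 and 1.69 in FLAG-Dbf4. At the peak beside HTB2, ChIP signal was 1.29 and 1.22 in FLAG-dbf4-Zn*1, against 1.16 and 1.23 in FLAG-Dbf4, and at the peak in HTB1 it was 0.967 and 0.468 in FLAG-dbf4-Zn*1, against 1.19 and 0.999 in FLAG-Dbf4. At the peak beside HHF1 it was 1.02 and 1.09 in FLAG-dbf4-Zn*1, against 0.867 and 0.500 in FLAG-Dbf4. The peaks that carried the strongest labelling near histone genes were thus between 0.468 and 1.29 times the mean outside the rDNA in G1 ChIP-seq of both alleles. The libraries of FLAG-dbf4-Zn*1 did not overlap those of FLAG-Dbf4 at the peaks beside HHF1, where they were higher, and in HTB1, where they were lower. These windows held only 13 to 38 fragments per library beside HHF1 and 15 to 52 in HTB1, and no test was made at the peaks.

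Genes that make, regulate or handle histones were read in the window that holds each of them. The list has 18 genes: the variant and linker histones HTZ1, HHO1 and CSE4, the regulators of histone genes HIR1, HIR2, HIR3, HPC2, SPT10, SPT21, YTA7 and RTT106, and the chaperones ASF1, RLF2, CAC2, MSI1, NAP1, SPT16 and POB3. Their windows had a median WT signal of 0.287, and 5 of 18 were above 1, so that strong labelling was not shared by the whole list. The highest was that of ASF1, a chaperone of H3 and H4, at 4.79, and the lowest that of SPT16, a subunit of the FACT complex, at 0.213. The window of ASF1 was lower than WT in dbf4∆C (−1.26), fkh1∆ dbf4-Zn*1 (−0.73), fkh1∆ (−0.58), fkh1∆ fkh2-dsm (−1.22), fkh1∆ dbf4-Zn*2 (−0.78), ctf19∆ fkh1∆ fkh2-dsm (−1.04) and ctf19∆ (−0.23), higher in dbf4-Zn*1 (0.24), and not called in dbf4-Zn*2 (0.11). That of SPT16 was higher in dbf4∆C (0.91), ctf19∆ (0.72) and fkh1∆ fkh2-dsm (0.73), all called by edgeR. In dbf4∆C 4 of the 18 were called lower and 13 higher, where 18.7% and 70.1% of all windows were, with a median of 0.70 where that of all windows was 0.73. In ctf19∆ 2 were lower and 10 higher, where 9.26% and 67.8% of all windows were (median 0.51, and 0.52 over all windows). In dbf4-Zn*1 7 were lower and 3 higher, where 35.2% and 15.5% of all windows were (median −0.37, and −0.28 over all windows). In the other 6 strains 3 to 5 were lower and 2 to 9 higher, where 13.0% to 25.7% and 16.7% to 62.5% of all windows were.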

How the data were processed

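BrdU incorporation was measured in 20 IP and 20 Total libraries of 10 strains, and Dbf4 binding in 4 ChIP-seq libraries, 44 samples in all, which were grouped by genotype label. The BrdU files hold raw counts of reads per 50-bp bin of the 16 nuclear chromosomes, deposited by the authors without scaling or smoothing. The ChIP-seq files list aligned read ends with a score, the mapping quality, as deposited by the authors. Bowtie2, SAMtools and bedtools are named in the submitters' processing notes, and versions, settings and genome build are not given in the sources used here. Gene names and neighbours come from a RefSeq gene table of assembly R64, matched by name, and none of its coordinates are printed. No columns of other samples were used (0 found).

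Bin counts were summed over the 4 loci and the rest of the genome in 11.5-kb windows (1037 windows, without a filter on counts). They were also summed over gene pairs and 1.5-kb windows (at least 10 counts on average), and over 500-bp peak windows. A filter of at least 100 counts on average was an alternative for the locus windows. ChIP-seq fragments were counted by their midpoints. Each table was fitted as a whole with the edgeR (version 4.0.16, R 4.3.3) quasi-likelihood test, with strain as factor and library size set to the sum over bins, so that all strains share 1 estimate of the spread, and p-values were adjusted by Benjamini-Hochberg over all windows of a comparison, with a threshold of 0.05. Log2 signals for likeness used a pseudocount of 0.1. Alternatives were TMM and DESeq2 (version 1.42.0) scaling, the Total library as library size, flanks of 2 and 10 kb, other peak definitions, windows without histone coding bins, mapping quality of at least 30, fits with only the strains compared, a replicate block, and each replicate left out. The fits were tested on simulated data. Python 3.11.15 with pandas 2.3.3, numpy 2.4.6 and matplotlib 3.10.9 was used for the rest. Named are all 8 histone genes and 4 loci, every peak inside a locus, the nearest peak on each side of a pair, the 3 most alike peaks, and the highest and lowest member of the list of histone-related genes. UTP20 was named after its values were seen. The members and lists were chosen with earlier results of these data known.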

Additional observations from a re-analysis of the deposited data

Results flagged for a closer look

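The effect of ctf19∆ in fkh1∆ fkh2-dsm differed from its effect in the strain with both forkhead factors at all 4 histone loci, by the test of the difference itself in edgeR. On the log2 scale the difference was 2.04 ± 0.09 at HTA2-HTB2 (adjusted p = 1.59e-23), 0.32 ± 0.09 at HHF1-HHT1 (adjusted p = 0.00378), 0.40 ± 0.09 at HTB1-HTA1 (adjusted p = 0.000403) and −1.19 ± 0.19 at HHT2-HHF2 (adjusted p = 1.62e-06), where 11.9% of all windows were called higher and 24.7% lower. Without fkh1∆ fkh2-dsm replicate 1 the value at HHF1-HHT1 was 0.22 and no longer passed (adjusted p = 0.0606). At the peaks it was 2.16 ± 0.21 beside HTB2 (adjusted p = 3.07e-09), 0.63 ± 0.21 beside HHF1 (adjusted p = 0.0219), 1.06 ± 0.21 in HTB1 (adjusted p = 0.00031) and 1.15 ± 0.25 at the strong peak nearest to HHT2-HHF2 (adjusted p = 0.000816), where 32.7% of all peaks were called higher and 2.02% lower.

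The effect of fkh1∆ differed between the zinc finger mutants and WT at HHT2-HHF2, by −0.58 ± 0.15 in dbf4-Zn*1 (adjusted p = 0.0021) and −0.94 ± 0.15 in dbf4-Zn*2 (adjusted p = 1.26e-06), where 14.0% and 14.9% of windows were called lower. Without WT replicate 1 the value in dbf4-Zn*1 was −0.35 and no longer passed. At the strong peak nearest to HHT2-HHF2 it differed by 0.68 ± 0.22 in dbf4-Zn*1 (adjusted p = 0.0162) and 0.73 ± 0.22 in dbf4-Zn*2 (adjusted p = 0.00912), where 25.6% and 27.9% of peaks were called higher. For the peak in GRX7 the same difference came to −1.25 ± 0.39 (dbf4-Zn*1) and −1.16 ± 0.39 (dbf4-Zn*2), given without a test. Both WT libraries lay under 2 times the mean there (1.94 and 0.993), so that strains with higher values brought this window into the list. No conclusion is drawn from the GRX7 values. The comparisons with dbf4-Zn*1 and dbf4-Zn*2 share the fkh1∆ and WT libraries.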

How the results depend on the processing

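Of the 36 tests of IP at the histone loci against WT, 5 were called lower and 29 higher, and these counts depended on the scale and the flanks. The shares of all windows in these comparisons were 9.26% to 35.2% lower and 15.5% to 70.1% higher. With the Total library as library size 0 were lower and 0 higher, with DESeq2 19 were higher, with 2-kb flanks 18 were higher, and with 10-kb flanks 3 were lower. Leaving out 1 replicate gave 5 to 5 lower and 26 to 30 higher. Of the 12 tests of added mutations, 2 were lower and 7 higher, where 14.9% to 21.1% of all windows were lower and 27.0% to 35.8% higher. The Total library gave 0 and 0, and 2-kb flanks or only the strains compared gave 1 lower (1 to 2 lower and 7 to 7 higher without 1 replicate). Of the 12 differences of effects, 3 were lower and 3 higher, where 14.0% to 24.7% of all windows were lower and 11.9% to 14.9% higher. The Total library gave 0 and 0, and 10-kb flanks gave 5 higher (2 to 3 lower and 2 to 4 higher without 1 replicate). Over gene pairs, 6 of 36 were lower and 15 higher, with TMM 11 and 9, and 5 to 7 and 8 to 16 without 1 replicate, the fewest without WT replicate 1. Among all windows of that size, 5.27% to 12.4% were lower and 12.2% to 56.5% higher. At peaks, 26 of 72 were lower and 10 higher, where 40.1% to 70.0% of all peaks were lower and 3.03% to 13.5% higher. TMM gave 11 and 36, DESeq2 10 and 38, and leaving out 1 replicate 19 to 29 and 9 to 11. Peaks highest within 10 kb, without those in HHF2 and GRX7, had 25 of 54 lower and 2 higher. For added mutations at peaks, 4 of 24 were higher, where 21.2% to 22.6% of all peaks were. With TMM 14 and with DESeq2 8 were higher (3 to 5 lower and 3 to 4 higher without 1 replicate). In IP against Total, 5 of 40 were lower, where 64.9% to 79.2% of all windows were, and 2 with the lower 90% of bins as library size. In Total, leaving out 1 replicate gave 2 to 4 lower and 11 to 14 higher. With every replicate kept, 0.579% to 6.65% of all windows were lower in Total and 0.579% to 19.4% higher. ChIP-seq had 0 calls at the loci and 0 at the gene pairs under every alternative, 0 to 0 without 1 replicate.

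Some directions turned, and the cause was not tested. At the loci, TMM gave −0.18 for HHF1-HHT1 in fkh1∆ fkh2-dsm and −0.27, −0.26, −0.10 and −0.073 for HTA2-HTB2, HHF1-HHT1, HTB1-HTA1 and HHT2-HHF2 in ctf19∆ fkh1∆ fkh2-dsm, and DESeq2 gave −0.20 and −0.28, −0.27, −0.11 and −0.10. With 2-kb flanks HHF1-HHT1 was −0.014 in fkh1∆ fkh2-dsm and HTA2-HTB2 −0.021 in ctf19∆ fkh1∆ fkh2-dsm, and with 10-kb flanks HTB1-HTA1 was 0.15 in dbf4∆C. The Total library gave 0.45 for HTB1-HTA1 in dbf4∆C, −0.14, −0.34 and −0.19 for HTA2-HTB2, HHF1-HHT1 and HTB1-HTA1 in fkh1∆, 0.058 for HHT2-HHF2 in ctf19∆ fkh1∆ fkh2-dsm set against ctf19∆, and 0.23 for HHT2-HHF2 in the effect of fkh1∆ in dbf4-Zn*1 minus that in WT. Over the gene pairs, TMM gave −0.46 for HTA2-HTB2 and −0.46 for HTB1-HTA1 in ctf19∆ fkh1∆ fkh2-dsm.

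At the peaks, TMM gave beside HTB2 0.52 in dbf4-Zn*1, 0.39 in dbf4-Zn*2 and 0.038 in ctf19∆ fkh1∆ fkh2-dsm, and DESeq2 0.64, 0.49 and 0.21. Beside HHF1 TMM gave 0.13 in dbf4-Zn*1, 0.086 in dbf4-Zn*2, 0.51 in fkh1∆ fkh2-dsm, 0.53 in fkh1∆ dbf4-Zn*1 and 0.54 in fkh1∆ dbf4-Zn*2, and DESeq2 0.25, 0.19, 0.61, 0.52 and 0.50, with 0.40 in ctf19∆ fkh1∆ fkh2-dsm. In HTB1 TMM gave 0.48 in dbf4-Zn*2, 0.053 in fkh1∆ fkh2-dsm, 0.38 in ctf19∆ fkh1∆ fkh2-dsm and 0.93 in fkh1∆ dbf4-Zn*1, and DESeq2 0.58, 0.15, 0.55 and 0.93. At the strong peak nearest to HHT2-HHF2 TMM gave 0.73 in fkh1∆ dbf4-Zn*1 and 0.72 in fkh1∆ dbf4-Zn*2, and DESeq2 0.72 and 0.68, with 0.42 in dbf4-Zn*1. At the peaks at ALK2 and in GRX7 in dbf4∆C TMM gave 0.47 and 0.57, and DESeq2 0.59 and 0.80. In HHF2 they gave 0.083 and 0.012 in fkh1∆ dbf4-Zn*2. In fkh1∆ fkh2-dsm the GRX7 peak was −1.64 without replicate 1 of that strain, the lowest, and 1.48 without WT replicate 1, the highest. Of fkh1∆ dbf4-Zn*1 against dbf4-Zn*1, TMM gave 0.40 beside HHF1, 0.34 in HTB1 and 0.43 at the strong peak nearest to HHT2-HHF2. Of fkh1∆ dbf4-Zn*2 against dbf4-Zn*2 it gave 0.46 beside HHF1 and 0.51 at that strong peak, and DESeq2 gave 0.31 and 0.37.

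No label ties equal replicate numbers to a shared culture across strains, and they were not taken as pairs: correlations of deviations of same-numbered IP and Total libraries were −0.0797 to 0.0892, and those of IP libraries of a mutant and WT −0.13 to 0.252, over 0.1 in fkh1∆ (0.252), dbf4-Zn*2 (0.208), dbf4-Zn*1 (0.194) and fkh1∆ dbf4-Zn*2 (0.121). With a replicate block 5 of the 36 locus tests were lower and 29 higher, 4 in place of 3 differences of effects were called higher, the added one being fkh1∆ in dbf4-Zn*2 against WT at HTA2-HTB2 (0.21), and ChIP-seq had 0 calls. A crossed pairing of fkh1∆ fkh2-dsm and ctf19∆ fkh1∆ fkh2-dsm with WT, chosen after seeing the data, gave 5 and 28. With 2 libraries per group, the lowest depth at HHT2-HHF2 and no input for ChIP-seq limit what could be detected.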
